A study of Homo sapiens with 12 samples.

Results

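H1299 is an established human non-small-cell lung carcinoma line, and the comparison described here is between H1299 cells given a lentivirus that carries VGF and H1299 cells given the empty vector. Members are the 6 H1299 libraries of the 12 in the series, 3 with VGF (genotype VGF-OE in the labels) and 3 with empty vector (genotype WT), and all 26535 features of the count table, of which 18228 had enough counts to be tested. The other 6 libraries are from the lung adenocarcinoma line A549 with the same 2 vectors. They entered the fit to share its estimate of the spread and to test whether the change with VGF differed between the lines. They also entered the filter that set the 18228 tested features. With the H1299 libraries alone, 16211 features passed it. All cells had taken up a lentivirus, so the groups share the viral backbone. Per the labels, each line was grown in its own medium with serum and antibiotics, RNA was total RNA, and messenger RNA was captured on beads. The submitters call the replicates biologically independent. The sources used here do not give the promoter that drives VGF, the time after transduction, or whether the cells are a pool or a clone.

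VGF encodes a neurosecretory protein of the extended granin family. It is packed into dense-core granules and cut by prohormone convertases into peptides that act outside the cell. The gene is a classical target of nerve growth factor and BDNF in neurons, where a cyclic AMP response element in its promoter is bound by CREB. H1299 cells are mesenchymal in shape.

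The 6 libraries held 37083754 to 41575732 counts each. The median SD of log2 CPM (counts scaled to library size) between replicates was 0.078 with empty vector and 0.090 with VGF. Cell identity matched the line: the epithelial cadherin CDH1 had 0 counts in each H1299 library, the mesenchymal filament gene VIM stood at 5723 to 6669 CPM, and CDKN2A, which A549 is known to have lost, had 5158 to 7075 counts. Of 15 endothelial, 15 leukocyte, 10 fibroblast and 8 erythroid markers, the sums were 24.6 to 27.2, 104 to 114, 2.24 to 2.39 and 0.363 to 0.827 CPM with empty vector and 25.9 to 30.9, 108 to 121, 1.51 to 2.08 and 0.448 to 0.542 CPM with VGF. The sums of 10 hepatocyte markers, led by SERPINA1, were 8.92 to 11.6 CPM and 7.02 to 8.68 CPM. EGFL7 and CD68, both also made by cancer cells, led the first 2 sums, and the defining genes TEK, EMCN, CD3D, MS4A1 and COL3A1 were at 0 in all 6 libraries.

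Empty vector library 2 stood apart by a trace of A549-type transcripts. These were 67 features with at least 20 CPM in each A549 library and at most 1 count in each of H1299 empty vector libraries 1 and 3, so the near absence in those libraries was set by the rule. Empty vector library 2 held 409 counts of them, in 48 of the features, which is 0.162% of their level in A549. The VGF libraries held 38, 42 and 53 counts, or 0.0164% to 0.0218%. A gene made at a high level in A549 could therefore appear lower with VGF through this library alone. The oxidoreductase gene AKR1B10, given as an example, had 0.981, 19.4 and 1.26 CPM in the empty vector libraries and 2.24, 1.68 and 0.896 CPM in the VGF libraries. Empty vector library 2 alone was high, and the trace there would bring 12.6 CPM of AKR1B10. The part of the trace in its value was not tested. Values without this library are given beside the gene lists that follow and beside most of the single genes.

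Promoters of VGF and of the chaperone genes HSPA8 and HSP90AA1, whose values open the results, are printed for the 250 bases before the RefSeq start (GRCh38.p14), 5′ to 3′ on the gene's strand. Capitals mark TGACGTCA, the cyclic AMP response element, in VGF, and the heat shock element cores GAANNTTC and TTCNNGAA in the other 2 genes, searched on both strands. In VGF (chr7:101165570-101165819, minus strand) the element begins at position -79 from the start.
VGF: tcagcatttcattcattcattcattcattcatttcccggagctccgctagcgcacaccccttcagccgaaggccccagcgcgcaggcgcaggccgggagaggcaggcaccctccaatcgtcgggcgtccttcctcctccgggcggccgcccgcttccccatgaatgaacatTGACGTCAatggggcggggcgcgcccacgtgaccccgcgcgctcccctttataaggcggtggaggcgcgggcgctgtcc
HSPA8: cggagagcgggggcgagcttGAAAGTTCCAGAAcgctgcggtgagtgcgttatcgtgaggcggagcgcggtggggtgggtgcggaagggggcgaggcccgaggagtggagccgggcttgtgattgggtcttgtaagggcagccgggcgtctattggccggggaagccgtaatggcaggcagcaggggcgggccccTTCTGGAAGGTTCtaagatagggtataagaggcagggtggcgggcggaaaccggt
HSP90AA1: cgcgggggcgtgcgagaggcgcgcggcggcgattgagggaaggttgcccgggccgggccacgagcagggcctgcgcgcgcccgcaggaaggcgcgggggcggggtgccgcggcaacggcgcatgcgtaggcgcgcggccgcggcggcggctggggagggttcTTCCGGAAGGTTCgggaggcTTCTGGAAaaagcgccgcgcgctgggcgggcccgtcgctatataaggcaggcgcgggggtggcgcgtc
The HSPA8 stretch (chr11:123062137-123062386, minus strand) held 4 matches in 2 overlapping pairs, at -230, -225, -55 and -50, and the HSP90AA1 stretch (chr14:102087045-102087294, minus strand) held 3, at -88, -83 and -68. The other RefSeq start of HSP90AA1 had 0 matches in its 250 bases. The chaperone gene DNAJB1, whose groups did not separate as given below, was also searched and is not printed. It held 2 matches, at -77 and -47, before 1 RefSeq start (chr19:14518398-14518647, minus strand) and 0 before its other starts. Among 35116 RefSeq promoters of this length, 1.65% held TGACGTCA and 11.6% held either heat shock core. A match is a string of letters and was not tested for binding.

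VGF rose in H1299 from a base that was already substantial. VGF (ENSG00000128564, GRCh38 chromosome 7, 101162509 to 101165593, minus strand) had 77.2, 90.5 and 89.0 CPM with empty vector and 886, 941 and 1114 CPM with VGF. The groups were far apart, with means of 85.6 ± 7.26 and 980.4 ± 119 CPM (SD, n = 3 each), an 11.5-fold change (log2 fold change 3.52, SE 0.098; edgeR quasi-likelihood test with Benjamini-Hochberg adjustment, adjusted p = 1.1e-09). VGF took 0.00837% to 0.00969% of all counts with empty vector and 0.0956% to 0.118% with VGF. By count it ranked 2332 to 2770 among the features with empty vector, and 67, 82 and 89 with VGF. Counts of the gene in the viral insert and at its own locus cannot be told apart here. Without empty vector library 2 the log2 fold change was 3.56.

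**Figure D1:**
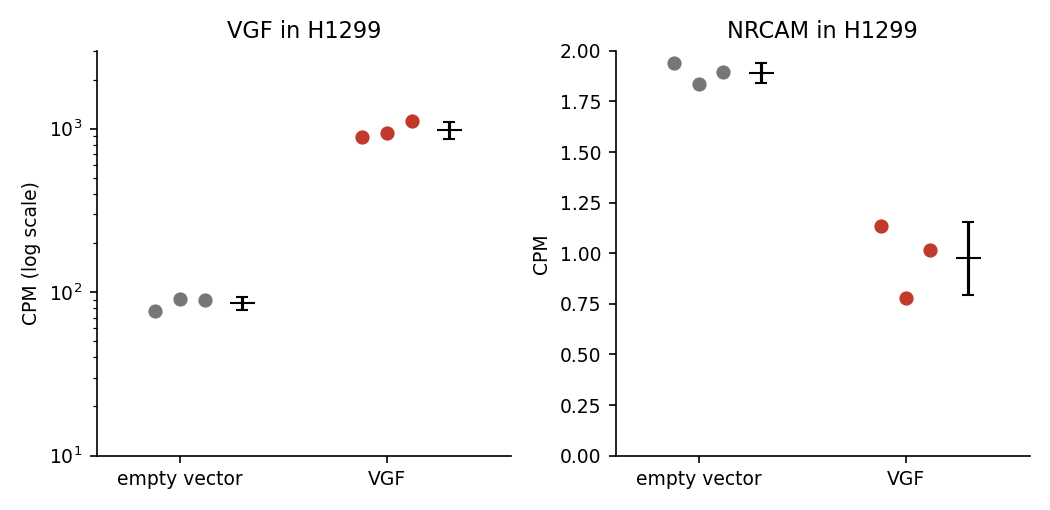
CPM of VGF (left, log axis) and NRCAM (right, linear axis from 0) in each H1299 library, with empty vector in grey and VGF in red; black marks are means ± SD of 3 libraries. The VGF libraries sit at 886 to 1114 CPM of VGF against 77.2 to 90.5 CPM, and at 0.778 to 1.13 CPM of NRCAM against 1.84 to 1.94 CPM.

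Beyond VGF, 1 gene passed the test. Of 18228 features, 2 were called at an adjusted p under 0.05 (0.011%), VGF higher and NRCAM lower (0.00549% in each direction). NRCAM (ENSG00000091129, chromosome 7, 108147623 to 108456717, minus strand) encodes a cell adhesion molecule of the L1 family that binds ankyrin and guides axons. It had 1.94, 1.84 and 1.90 CPM with empty vector and 1.13, 0.778 and 1.01 CPM with VGF. All 3 VGF libraries were below all 3 empty vector libraries, and the counts behind these values were 78 to 87 and 31 to 46 per library. NRCAM fell by 0.95 on the log2 scale (SE 0.11, 95% interval -1.20 to -0.70, edgeR adjusted p = 0.019). The A549-type trace would bring 0.674 CPM to empty vector library 2, which held 1.84 CPM (NRCAM stands at 416 CPM in A549). Without that library the log2 fold change was -0.97, and the part of the trace was not tested. In A549, NRCAM fell by 0.28 on the log2 scale (edgeR adjusted p = 0.031), and the difference between the lines did not pass the test (adjusted p = 0.067). The H1299 call was not stable: the edgeR adjusted p was 0.068 without empty vector library 2, 0.057 and 0.099 without libraries 1 and 3, 0.051 without VGF library 3, 0.052 without A549 VGF library 3, and 0.476 with the H1299 libraries fitted alone.

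At an unadjusted p under 0.05, 571 features were higher (3.13%) and 851 lower (4.67%) with VGF, 7.8% in all. The precision was high for well expressed genes. Among 11248 features with at least 5 CPM in a group, the 95% interval of the log2 fold change lay within ±1 for 97.28% and within a 1.5-fold change for 90.56%. The median absolute log2 fold change of these features was 0.065, and 27 exceeded 1. DESeq2 on the same 12 libraries gave an adjusted p for 18114 features and called 139 (0.767%), 47 higher (0.259%) and 92 lower (0.508%). Without empty vector library 2 it called 75 (0.431%), 29 higher (0.166%) and 46 lower (0.264%), of which 59 were among the 139. Fitted to the 6 H1299 libraries alone, DESeq2 called 49 features (39 higher, 10 lower). The 139 held 28 of these. In the fit of the H1299 libraries alone, DESeq2 gave no adjusted p to genes of lower level such as NRCAM, TGFBI and P2RX5-TAX1BP3. The features with an adjusted p there were not counted, so no share is given. Its balance of directions therefore cannot be set beside that of the other fits. Of the 139 features, 128 were annotated genes, 70 stayed under 5 CPM, and 123 had groups that did not overlap, against 12.7% of all tested features (5.65% higher and 7.07% lower). The calls rest on the same libraries, so the lack of overlap is no separate support for them. Of the 92 lower calls, 52 had more than 10 times more in A549 than in H1299 with empty vector, against 12 of the 47 higher calls and 10.81% of all tested features. Genes that DESeq2 called and edgeR did not are given below as values, chosen after their values were seen, and their edgeR adjusted p is given with them.

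**Figure D2:**
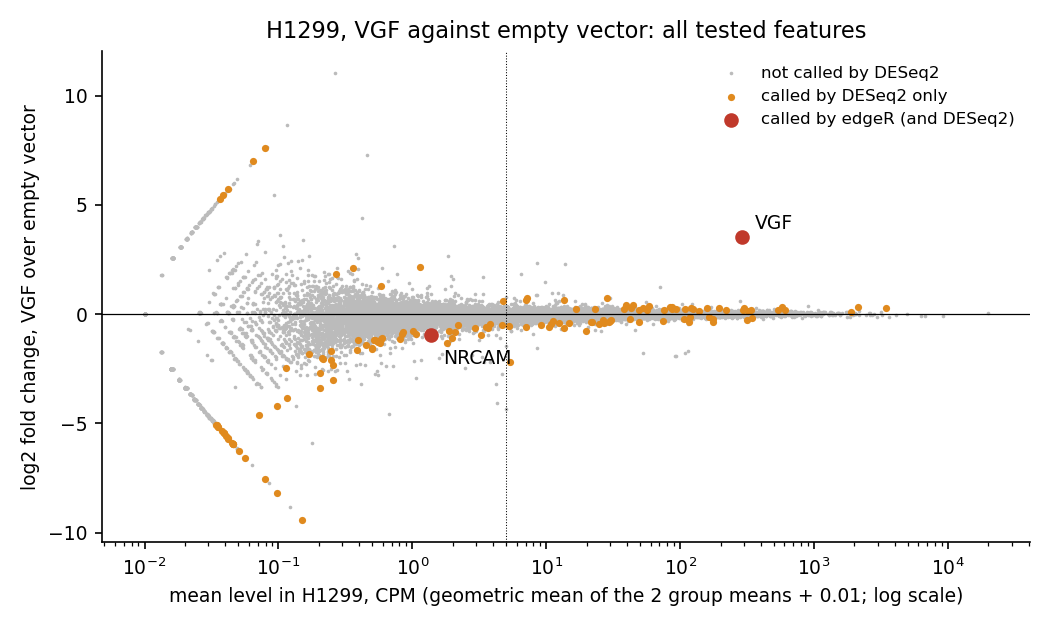
Log2 fold change of VGF over empty vector (vertical axis) against the mean level in H1299 in CPM (horizontal log axis) for the 18228 tested features; red points were called by edgeR, orange points by DESeq2 alone, and the dotted line marks 5 CPM. VGF stands far above other features of its level, most features lie near 0, and the orange points at the left edge are genes with no count in one group.

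Chaperone genes leaned upward with VGF, without a call by edgeR. Of 26 tested heat shock genes, 19 were higher and 7 lower with VGF, with a median log2 fold change of 0.11 (0.12 without empty vector library 2, and 0.062 without library 3), against -0.0055 over all tested features, of which 8275 were higher and 9387 lower. DESeq2 called 3. HSPA8, the constitutive HSP70 chaperone and reported as a binding partner of the VGF peptide TLQP-21, had 2003, 1960 and 1745 CPM with empty vector and 2347, 2392 and 2302 CPM with VGF. The groups did not overlap (log2 fold change 0.30, SE 0.053; edgeR adjusted p = 0.119, DESeq2 1.1e-05, and 0.00018 without empty vector library 2). HSP90AA1, the inducible cytosolic HSP90, had 3323, 3214 and 2952 CPM with empty vector and 3831, 3998 and 3574 CPM with VGF, again without overlap (0.27, SE 0.057; edgeR adjusted p = 0.164, DESeq2 0.0014, and 0.012 without empty vector library 2). The co-chaperone DNAJB6 stood at 199 to 215 CPM and 233 to 238 CPM (log2 fold change 0.18, and 0.20 without empty vector library 2; edgeR adjusted p = 0.418, DESeq2 0.047). Other stress-inducible members did not separate: DNAJB1 stood at 172 to 190 CPM and 189 to 203 CPM, and the HSP70 cofactor BAG3 at 81.5 to 91.5 CPM and 81.6 to 94.6 CPM. HSPA8 and HSP90AA1 have processed pseudogenes, and how their reads were divided is not known. The other tested gene among the proposed VGF peptide receptors, C1QBP, a mitochondrial and surface protein, stood at 107 to 114 CPM with empty vector and 117 to 126 CPM with VGF (log2 fold change 0.14, edgeR adjusted p = 0.450).

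Genes of the granule pathway in which VGF works showed no second call. Of 33 tested granin and secretion genes, 11 were higher and 20 lower, with VGF the 1 call and a median of -0.049 (-0.024 without empty vector library 2, its value nearest 0 with a H1299 library left out). The granin SCG2 had 11.5, 12.6 and 11.01 CPM with empty vector and 13.0, 10.9 and 11.3 CPM with VGF. CHGB, chromogranin B, had 14.1, 17.7 and 16.6 CPM and 14.8, 12.3 and 15.8 CPM. In both granins the groups overlapped. PCSK1, a convertase that cuts prohormones, was at 0 on average in both groups, and the amidating enzyme PAM stood at 140 to 147 CPM and 136 to 145 CPM. SYT1, a calcium sensor of exocytosis, had 19.7, 20.2 and 23.0 CPM with empty vector and 17.6, 12.9 and 13.5 CPM with VGF, lower without overlap (log2 fold change -0.52, SE 0.14, and -0.54 without empty vector library 2; edgeR adjusted p = 0.368). Of 15 tested neurotrophin and receptor genes, 3 were higher and 9 lower (median -0.056, and -0.203 to -0.033 with a H1299 library left out, the last without empty vector library 2), and none was called by either tool.

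Targets of YAP/TEAD leaned slightly upward, by an amount that varied with the libraries used. YAP and TEAD are the co-activator and DNA-binding factor at the end of the Hippo pathway. Of 27 tested YAP/TEAD targets, 17 were higher and 10 lower (median 0.056, 0.084 without empty vector library 2, and 0.018 without VGF library 2), with 0 edgeR and 2 DESeq2 calls and 7 genes higher without overlap. Over all features, 5.65% were higher without overlap and 0.259% were called higher by DESeq2. AMOTL2, an angiomotin that feeds back on YAP, had 179, 185 and 167 CPM with empty vector and 207, 225 and 213 CPM with VGF (log2 fold change 0.28, SE 0.053; edgeR adjusted p = 0.141, DESeq2 0.00011, and 0.00038 without empty vector library 2). IGFBP3, a secreted binding protein of insulin-like growth factors, had 10.2, 11.9 and 10.5 CPM and 15.3, 18.8 and 16.2 CPM (0.62, SE 0.14; edgeR adjusted p = 0.172, DESeq2 0.0056, and 0.016 without that library). Neither gene's groups overlapped. The matricellular genes CYR61 and CTGF and the muscle ankyrin repeat gene ANKRD1, classical YAP targets, stood at 193 to 252, 92.0 to 114 and 6.13 to 13.0 CPM with empty vector and at 319 to 387, 128 to 163 and 15.6 to 18.0 CPM with VGF, each without overlap and with edgeR adjusted p values of 0.393, 0.916 and 0.509. Without empty vector library 2 their log2 fold changes were 0.63, 0.47 and 0.83.

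Of 37 tested ERK output genes, 21 were higher and 16 lower (median 0.052, 0.079 without empty vector library 2, -0.0186 without library 3, and -0.017 without VGF library 3). VGF, itself in this list, was its 1 edgeR call. DUSP5, a nuclear phosphatase of ERK, had 77.0, 80.0 and 66.7 CPM with empty vector and 92.8, 97.5 and 92.8 CPM with VGF, without overlap (log2 fold change 0.34, SE 0.070; edgeR adjusted p = 0.148, DESeq2 0.0014, and 0.0011 without empty vector library 2). MYC stood at 135 to 166 CPM and 174 to 205 CPM (edgeR adjusted p = 0.568), while DUSP6, another ERK phosphatase, had a log2 fold change of 0.0041. Of 22 CREB-responsive genes, 8 were higher and 14 lower (median -0.038, -0.026 without empty vector library 2, and -0.066 to 0.0026 with a H1299 library left out), again with VGF the only edgeR call, and the nuclear receptor gene NR4A2 was lower without overlap (2.27 to 2.89 CPM and 1.40 to 1.76 CPM, edgeR adjusted p = 0.418).

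A further 5 genes, which share no list, were picked for DESeq2 calls with groups that did not overlap. They were higher in all 3 VGF libraries, which the choice required, and did not pass edgeR. ADM, the vasodilator peptide adrenomedullin, had 6.71, 5.31 and 4.86 CPM with empty vector and 7.86, 9.46 and 8.94 CPM with VGF (log2 fold change 0.63, SE 0.12; edgeR adjusted p = 0.142, DESeq2 0.00016). DKK1, a secreted WNT inhibitor, had 3.43, 4.06 and 4.04 CPM and 5.17, 5.87 and 6.67 CPM (0.62, SE 0.12; edgeR adjusted p = 0.142, DESeq2 7.4e-05). In both genes the groups were apart. DKK1 stood at 535 CPM in A549, and the trace would bring 0.867 CPM to empty vector library 2. Without that library the log2 fold change of DKK1 was 0.66. UGCG, the enzyme that starts glycosphingolipid synthesis, had 75.02, 78.8 and 77.9 CPM and 102, 101 and 88.7 CPM (0.33, edgeR adjusted p = 0.142, DESeq2 0.0016). MGLL, monoacylglycerol lipase, had 54.5, 53.5 and 45.7 CPM and 65.6, 62.2 and 69.0 CPM (0.36, edgeR adjusted p = 0.161, DESeq2 0.0011). The tetraspanin-like gene TM4SF1 had 543, 527 and 477 CPM and 618, 713 and 590.1 CPM (0.31, edgeR adjusted p = 0.201, DESeq2 0.0018). These 5 genes kept an adjusted p under 0.05 in DESeq2 without empty vector library 2, at 0.00825, 0.00053, 0.016, 0.0042 and 0.013.

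**Figure D3:**
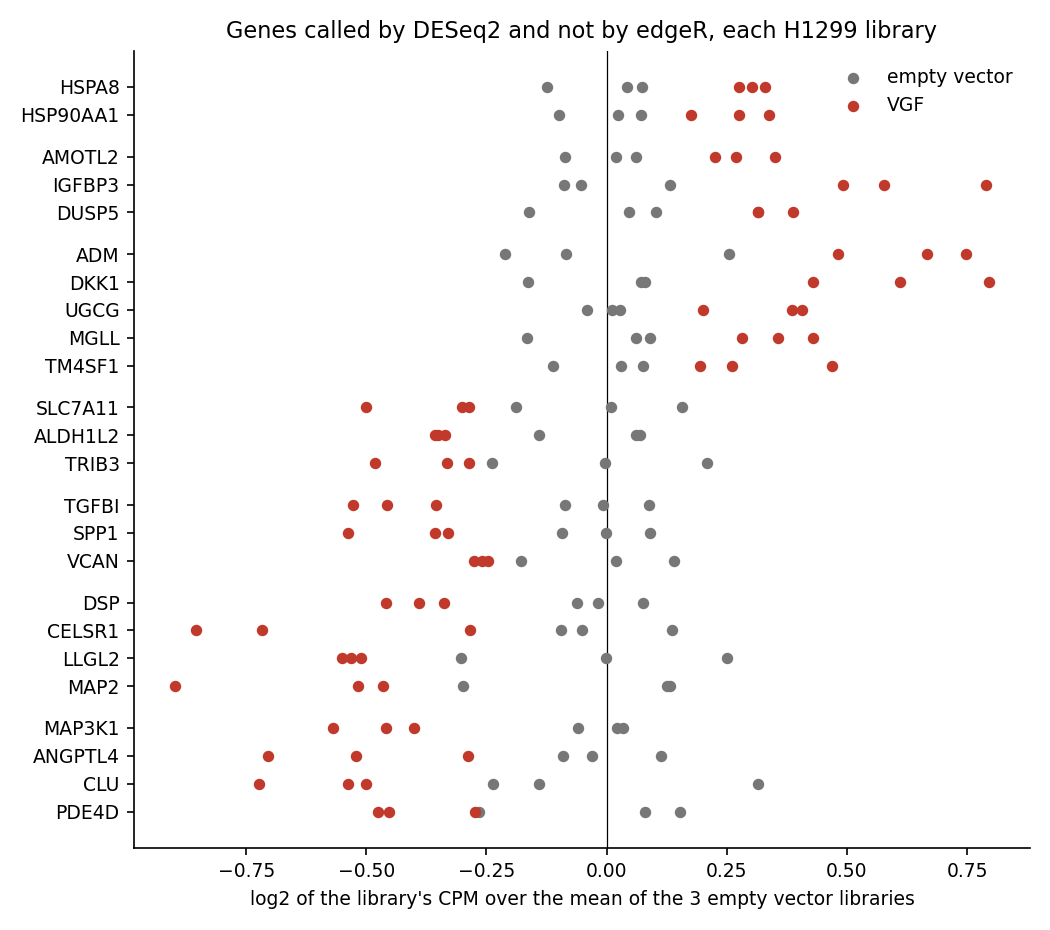
Log2 of the CPM of each H1299 library over the mean of the 3 empty vector libraries (horizontal axis) for 24 genes called by DESeq2 and not by edgeR, grouped by role from top to bottom; grey points are empty vector libraries and red points VGF libraries. The red points lie to one side of the grey points in each gene, which was a condition for picking most of them. The distance is about 0.3 on the log2 scale for HSPA8 and more for ADM, DKK1 and IGFBP3.

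Most genes of amino acid supply had lower values with VGF, without a call by edgeR. ATF4 is the transcription factor that raises amino acid transporters and synthetic enzymes when amino acids are short. Of 36 tested ATF4 targets, 7 were higher and 29 lower (median -0.11, and -0.056 without empty vector library 2), with 0 edgeR and 3 DESeq2 calls. These 3 were lower, and over all features DESeq2 called 0.508% lower. SLC7A11, the cystine importer, had 116, 133 and 147 CPM with empty vector and 108, 107 and 93.1 CPM with VGF (log2 fold change -0.36, SE 0.076; edgeR adjusted p = 0.152, DESeq2 0.0016, and 0.022 without empty vector library 2). ALDH1L2, a mitochondrial folate enzyme, had 49.9, 57.5 and 57.8 CPM and 43.2, 43.6 and 43.0 CPM (-0.35, SE 0.073; edgeR adjusted p = 0.148, DESeq2 0.011). TRIB3, a pseudokinase induced by ATF4, had 168, 198 and 230 CPM and 163, 142 and 158 CPM (-0.36, and -0.37 without empty vector library 2; edgeR adjusted p = 0.368, DESeq2 0.038). In SLC7A11 and TRIB3 the lowest empty vector library, library 1, lay close above the VGF libraries. ALDH1L2 lost its DESeq2 call without empty vector library 2 (adjusted p = 0.136). ATF4 itself had a log2 fold change of 0.044. Of 31 tested NRF2 targets, the antioxidant response genes, 5 were higher and 26 lower (median -0.077, and -0.041 without empty vector library 2). AKR1B10, shown above with the trace, is in that list. SLC7A11 was its 1 DESeq2 call.

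Most matrix genes had lower values with VGF, without a call by edgeR. Of 46 tested matrix proteins other than collagens, 8 were higher and 38 lower (median -0.13, -0.10 without empty vector library 2, and -0.065 without VGF library 2), with 0 edgeR and 2 DESeq2 calls. These 2 were lower, and over all features DESeq2 called 0.508% lower. TGFBI, a secreted matrix protein that binds collagens and integrins, had 28.7, 30.7 and 27.2 CPM with empty vector and 22.6, 20.02 and 21.0 CPM with VGF. The groups were clearly apart (log2 fold change -0.44, SE 0.068; edgeR adjusted p = 0.070, DESeq2 1.2e-06), and the A549-type trace would bring 1.23 CPM to empty vector library 2, without which the log2 fold change was -0.40 (DESeq2 adjusted p = 0.00053). VCAN, the proteoglycan versican, had 29.5, 32.0 and 25.7 CPM and 24.5, 24.3 and 24.0 CPM, close to overlap in library 3 (-0.26, edgeR adjusted p = 0.372, DESeq2 0.048, and 0.414 without empty vector library 2). SPP1, osteopontin, a secreted ligand of integrins and CD44, had 18.0, 16.9 and 15.9 CPM and 13.4, 11.6 and 13.2 CPM (-0.41, SE 0.067; edgeR adjusted p = 0.088, DESeq2 0.00016, and 0.0027 without empty vector library 2). FN1, fibronectin, had 61.6, 96.1 and 62.1 CPM and 53.7, 48.3 and 57.9 CPM. Library 2 was the high one, the trace there would bring 9.25 CPM, and the log2 fold change of FN1 went from -0.46 to -0.22 without it (edgeR adjusted p = 0.418 and 0.490). Of 33 integrin and focal adhesion genes, 7 were higher and 26 lower (median -0.056, -0.044 without empty vector library 2, and -0.110 without VGF library 3), and of 32 collagen chains 11 were higher and 18 lower, with a median of -0.11 that went to 0 without empty vector library 2.

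Of 42 tested neural adhesion and guidance genes, 12 were higher and 30 lower (median -0.12, -0.080 without empty vector library 2, and -0.206 to -0.074 with a H1299 library left out), with NRCAM the edgeR call. SLIT3, a secreted guidance cue, had 2.76, 2.72 and 2.80 CPM with empty vector and 1.33, 1.41 and 1.96 CPM with VGF (log2 fold change -0.81, SE 0.16, and -0.82 without empty vector library 2; edgeR adjusted p = 0.142, DESeq2 0.00038). NRXN3, a presynaptic adhesion molecule, had 0.134, 0.136 and 0.0729 CPM and was at 0 in the 3 VGF libraries (edgeR adjusted p = 0.059, DESeq2 0.032, and 0.071 without that library). Of 27 tested protocadherins and cadherins, 6 were higher and 21 lower, with a median of -0.26 (-0.24 without empty vector library 2), and at least 1 CPM was reached by 12 of them, with a median of -0.19. PCDH9 had 2.56, 2.56 and 2.65 CPM and 1.99, 1.88 and 1.63 CPM, without overlap (-0.50, edgeR adjusted p = 0.119, DESeq2 0.039, and 0.094 without empty vector library 2).

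Other lower values called by DESeq2 alone are given for single genes. They were picked for those calls and for groups that did not overlap, and none passed edgeR. DSP, desmoplakin of the desmosome, had 32.7, 30.6 and 29.7 CPM with empty vector and 22.6, 23.7 and 24.5 CPM with VGF (log2 fold change -0.39, SE 0.076; edgeR adjusted p = 0.142, DESeq2 0.0014, and 0.011 without empty vector library 2). CELSR1, a planar polarity cadherin, had 14.2, 12.1 and 12.5 CPM and 7.86, 7.15 and 10.6 CPM (-0.60, SE 0.13; edgeR adjusted p = 0.164, DESeq2 0.00052, and 0.0011 without that library). LLGL2, a basolateral polarity protein, had 5.15, 7.55 and 6.35 CPM and 4.46, 4.39 and 4.34 CPM (-0.53, edgeR adjusted p = 0.205, DESeq2 0.0056). LLGL2 lost its DESeq2 call without empty vector library 2 (0.169), and so did the microtubule protein gene MAP2 (13.5, 18.2 and 18.2 CPM and 11.6, 8.93 and 12.1 CPM, DESeq2 adjusted p = 0.0077 and 0.114). Over 31 tested epithelial junction and keratin genes, 9 were higher and 21 lower, with a median of -0.098 (-0.062 without empty vector library 2, and -0.214 to -0.052 with a H1299 library left out).

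Ribosomal protein and respiratory chain genes were slightly higher in nearly all members, without a call by edgeR. Of 68 tested cytosolic ribosomal protein genes, 64 were higher (median 0.060, 0.064 without empty vector library 2, and 0.036 to 0.091 without VGF library 2 or 1), 20 without overlap, with 0 edgeR and 3 DESeq2 calls. Over all features, 5.65% were higher without overlap and 0.259% were called higher by DESeq2. RPL27A stood at 547 to 585 CPM and 617 to 663 CPM (log2 fold change 0.18, edgeR adjusted p = 0.287, DESeq2 0.011, and 0.129 without empty vector library 2). The genes took 5.40% to 5.48% of counts with empty vector and 5.53% to 5.86% with VGF. Of 45 nuclear genes of the respiratory chain, 41 were higher (median 0.069, 0.082 without empty vector library 2, and 0.069 to 0.087 with a H1299 library left out), 16 without overlap, with no call by either tool, and NDUFA8, a complex I subunit, stood at 33.8 to 38.9 CPM and 42.3 to 43.9 CPM (edgeR adjusted p = 0.2997). The 13 genes of the mitochondrial genome went the other way, with 12 lower (median -0.090, and -0.063 without empty vector library 2), none without overlap, with -0.159 to -0.052 as the range with a H1299 library left out, and 3.32% to 3.47% of counts against 3.03% to 3.41%.

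Transcript length moved with these values. With the features of at least 5 CPM split into 5 groups of equal size by exonic length, the median log2 fold change went from 0.038 in the shortest group through 0.017, 0.0057 and -0.0095 to -0.029 in the longest (0.047 and -0.022 at the ends without empty vector library 2). In the shortest group 64.95% of features were higher, and in the longest 37.04%. Each VGF library, set against the empty vector mean, gave its highest medians in the 2 shortest groups and its lowest in the longest. Ribosomal and respiratory transcripts are short, matrix and adhesion transcripts long, and the part of length in those results was not tested. In growth-related lists the shifts were small as well. Of 53 DNA replication genes 44 were higher (median 0.050, 0.078 without empty vector library 2, and 0.0036 without library 3). Of 50 mitosis genes 33 were higher (median 0.015, 0.028 without empty vector library 2, and 0.0024 without VGF library 2). Of 25 cholesterol genes 20 were higher (median 0.070, 0.113 without empty vector library 2, and 0.045 without library 3). None of these genes was called by edgeR.

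**Figure D4:**
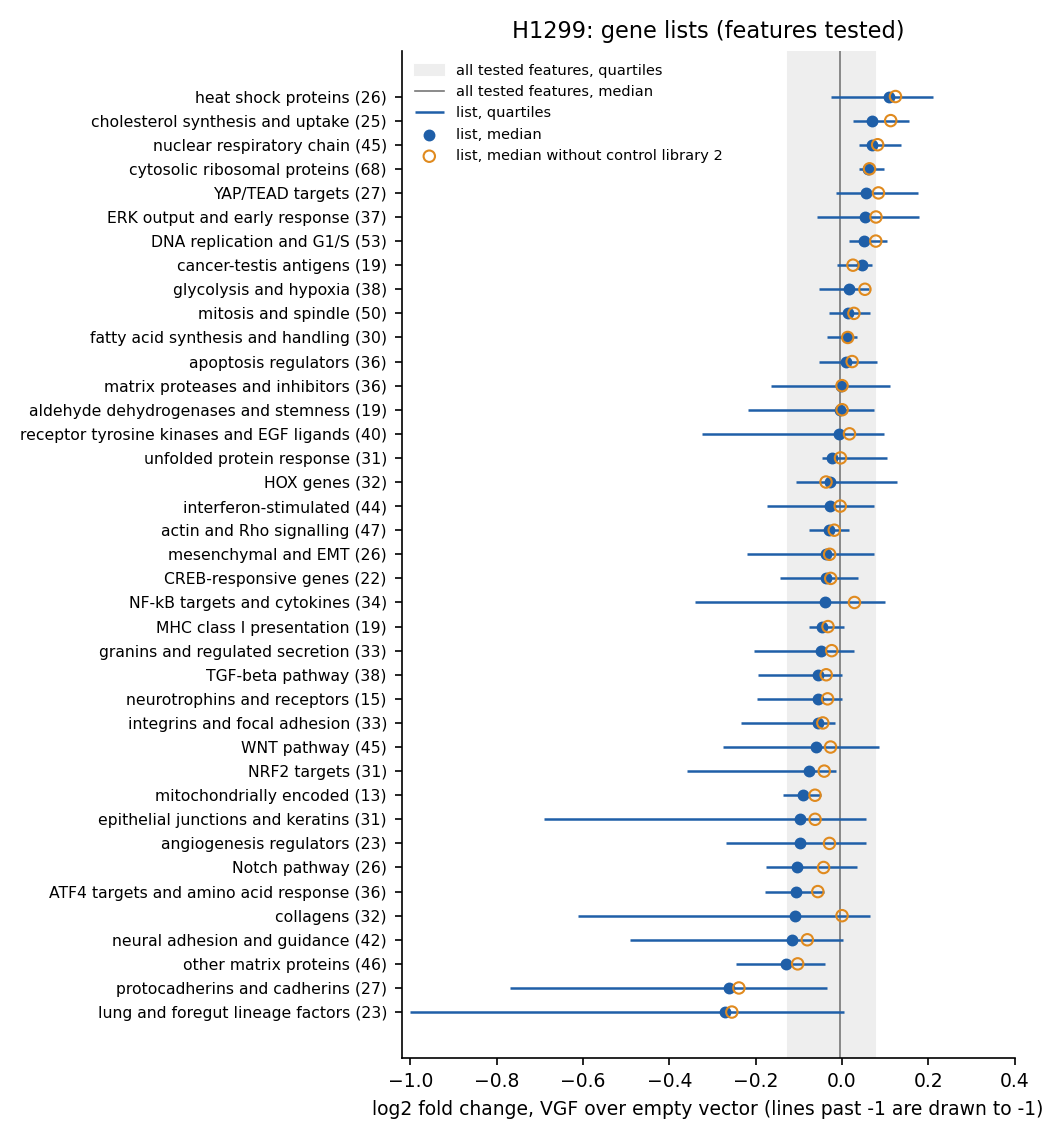
Median log2 fold change (blue points) with quartiles (blue lines) of gene lists with at least 10 tested members, except the p53 targets, which are not drawn. Orange rings are medians without empty vector library 2. The grey line and band are the median and quartiles of all tested features. Numbers in brackets are tested members. Heat shock genes have a median of 0.11, protocadherins and cadherins of -0.26, and most list medians lie within the quartiles of all tested features.

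Readthrough gene models gave some of the larger differences at 5 CPM or more. P2RX5-TAX1BP3 (ENSG00000257950, chromosome 17, 3663063 to 3696194, minus strand), a gene model that joins an ATP receptor gene to its neighbour, had 10.1, 9.26 and 14.9 CPM with empty vector and 2.91, 2.33 and 2.15 CPM with VGF. The groups were 4.63-fold apart (log2 fold change -2.21, SE 0.32), with an edgeR adjusted p of 0.059 over the 12 libraries, 0.002 with the H1299 libraries alone and 0.0011 without empty vector library 2 there, and 8.0e-09 in DESeq2. The fit of the H1299 libraries alone called 4 of 16211 features (0.0247%), 3 higher (0.0185%) and 1 lower (0.00617%). It shares 46.8% of its exonic bases with other genes on its strand. The 2 genes it joins were higher, P2RX5 at 7.03 to 11.9 CPM and 12.6 to 15.5 CPM (edgeR adjusted p = 0.622) and TAX1BP3 at 29.1 to 35.6 CPM and 36.7 to 40.1 CPM (0.578). BSCL2, the lipid droplet protein seipin, had 28.4, 24.2 and 24.9 CPM and 14.7, 12.6 and 18.0 CPM (-0.77, and -0.82 without empty vector library 2; edgeR adjusted p = 0.142, DESeq2 0.00073). The readthrough HNRNPUL2-BSCL2, whose exonic bases lie wholly within other genes, had 0, 11.3 and 0 CPM and 22.8, 26.6 and 7.498 CPM (log2 fold change 2.32, SE 1.06; edgeR adjusted p = 0.637, DESeq2 0.878). Without empty vector library 2 the fitted value, set against 0 counts, was 12.48 (edgeR adjusted p = 0.068, DESeq2 2.8e-10). The A549-type trace would bring 0.058 CPM of HNRNPUL2-BSCL2 to that library. The sources used here do not say how reads were split between these models.

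The change with VGF differed between the lines for 29 features (0.159%, edgeR test of the difference of the 2 log2 fold changes, H1299 minus A549), 16 with the more positive change in H1299 and 13 with the more positive change in A549 (0.0878% and 0.0713%). The lines grew in different media, so line and medium cannot be told apart. Of these, 20 had opposite signs in the 2 lines, 21 were also called in A549 and 1, VGF, in H1299. Some of the 20 had a log2 fold change near 0 in H1299, such as CDCA7L (-0.0021), UNC13B (0.027) and SAT1 (0.030). Their sign in H1299 carries little meaning, and a choice by the difference favours opposite signs. VGF rose less in H1299 (difference -5.52, SE 0.16, adjusted p = 1.5e-09), from a base of 85.6 against 2.43 CPM. TGFBI and SPP1 were lower with VGF in H1299, as given above, and higher in A549, at 760 ± 44.4 and 929 ± 55.2 CPM for TGFBI and 127 ± 2.44 and 152 ± 5.75 CPM for SPP1 (SD, n = 3; edgeR adjusted p in A549 of 0.053 and 0.069). The differences were -0.73 and -0.66 (SE 0.091 and 0.089, edgeR adjusted p = 0.013 for both, and 0.030 and 0.036 without H1299 empty vector library 2). DUSP5 was higher in H1299 and lower in A549 (86.6 ± 5.20 and 64.9 ± 3.29 CPM, difference 0.76, SE 0.099, edgeR adjusted p = 0.013, and 0.030 without that library). P2RX5-TAX1BP3 had a difference of -3.10 (SE 0.45, edgeR adjusted p = 0.017, and 0.036 without it).

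Other differences came from changes in A549 that H1299 did not show at its precision. The cancer-testis antigen genes MAGEA3 and MAGEA6, silent in most adult tissues, had 134 to 142 CPM and 131 to 137 CPM with empty vector in H1299 and 142 to 148 CPM and 139 to 142 CPM with VGF, with 95% intervals of the log2 fold change from -0.071 to 0.21 and from -0.072 to 0.21. In A549 they had log2 fold changes of 1.21 and 0.77, and the differences were -1.14 and -0.70 (edgeR adjusted p = 0.00053 and 0.013). The 2 genes are nearly identical, and reads may be shared between them. ADGRB3, an adhesion receptor of neurons, had 6.35 to 7.03 CPM and 6.70 to 8.35 CPM in H1299 (interval -0.55 to 0.85), against a log2 fold change of -4.12 in A549. FBN2, a microfibril protein, had 132 to 138 CPM and 120.3 to 140.1 CPM (interval -0.24 to 0.069), against -0.78 in A549. SAT1, which acetylates polyamines, had 31.0 to 36.1 CPM and 33.0 to 33.8 CPM (interval -0.088 to 0.15), against -0.48 in A549. Without H1299 empty vector library 2, the difference test called 18 features, 16 of them among the 29, and FBN2 and SAT1 each had an adjusted p of 0.052.

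**Figure D5:**
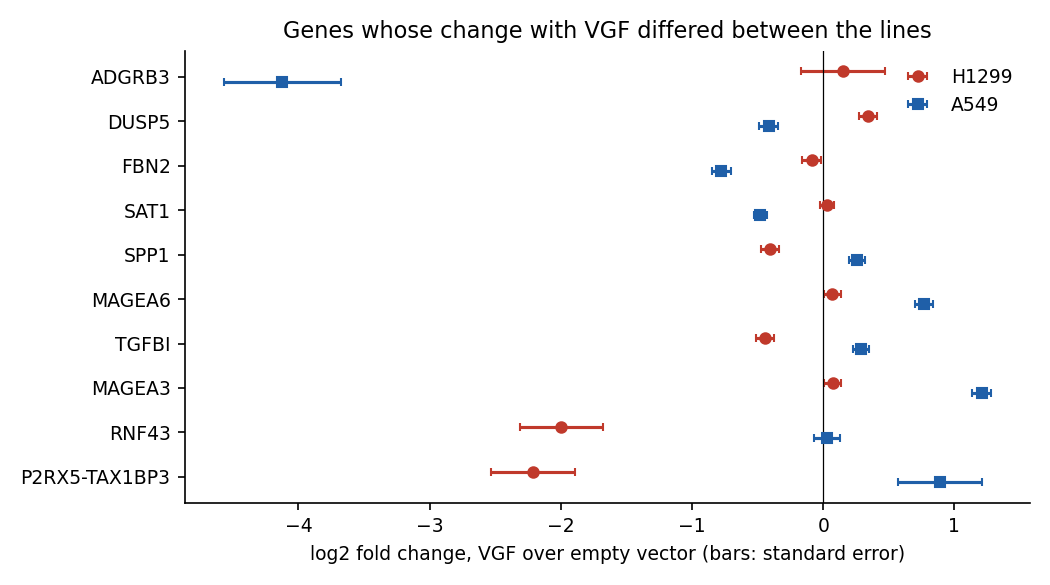
Log2 fold change of VGF over empty vector (horizontal axis) in H1299 (red circles) and A549 (blue squares), with standard errors as bars, for 10 named genes other than VGF whose change differed between the lines by edgeR's test. TGFBI and SPP1 lie left of 0 in H1299 and right of it in A549, DUSP5 the other way, and MAGEA3, MAGEA6, SAT1, FBN2 and ADGRB3 lie near 0 in H1299 only.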

How the data were processed

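The authors deposited raw counts and FPKM values per feature for 12 libraries. GRCh38 and DESeq2 are named in the submitters' processing notes. The sources used here do not give the aligner, the counter, the annotation or the use of strand. Left out were 18 stray lines, and 27 symbols turned into dates were restored by ID. All 19974 Ensembl IDs were found in GENCODE 29, which gave the coordinates, and 6561 features are loci without annotation.

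Counts were tested with edgeR 4.0.16 (R 4.3.3): TMM scaling, filterByExpr by group, 1 fit of the 4 group means without a block, the quasi-likelihood F test with 8 residual and 4.44 prior degrees of freedom, and Benjamini-Hochberg adjustment over 18228 features. Standard errors come from the F statistic. CPM values use TMM-scaled totals. Library totals were 31378171 to 41919484, and 3 counts equal 0.072 to 0.081 CPM in H1299. DESeq2 1.42.0, limma 3.58.1 (voom on counts, and log2 of the deposited FPKM plus 1 or 0.1), other scalings and filters, a replicate block, the H1299 libraries alone and leaving out each library were alternatives. DESeq2 gave no adjusted p for 114 features. Replicates differed by more than sampling noise (chi-square per degree of freedom 8.16 to 13.8). The script was tested on simulated counts.

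The 41 gene lists, 5 marker lists and the members were chosen with earlier results of these data known. Named genes were to be called genes with at least 5 CPM and the same direction in 9 library pairs, up to 3 called members per direction of each list, and otherwise up to 2 members of smallest p. Only VGF met the first part. All other genes, among them those called by DESeq2 alone, in an alternative or in the difference between lines, were chosen after their values were seen. Among 66 genes that DESeq2 called at 5 CPM or more with groups that did not overlap, the 12 largest changes per direction were considered. Same-numbered libraries did not deviate together (correlations 0.013, 0.012 and 0.105), so the numbers were not taken as pairs. Some genes are not reported here.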

Additional observations from a re-analysis of the deposited data

Results flagged for a closer look

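The change with VGF differed between H1299 and A549, by edgeR's test of the difference with adjustment over all features, for 11 named genes with counts in each of the 4 groups. The differences of the log2 fold change, H1299 minus A549, were -5.52 for VGF, -1.14 for MAGEA3, -0.73 for TGFBI, 0.76 for DUSP5, -0.66 for SPP1, 4.27 for ADGRB3, -0.70 for MAGEA6, -3.10 for P2RX5-TAX1BP3, 0.51 for SAT1 and 0.69 for FBN2. For RNF43, a ubiquitin ligase that removes WNT receptors, the difference was -2.03 (SE 0.33, edgeR adjusted p = 0.032, and 0.12 without H1299 empty vector library 2). RNF43 had 0.334, 0.454 and 0.413 CPM with empty vector and 0.0985, 0.150 and 0.0472 CPM with VGF in H1299, and 41.7 ± 2.24 and 42.6 ± 3.85 CPM in A549 (SD, n = 3). No group had more than 3 libraries, so no library was tested for standing far from its group.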

How the results depend on the processing

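VGF kept its call and direction in every alternative, at 3.42 to 3.59 with a library left out and 3.47 with FPKM plus 1. The count of called H1299 features, 2, was 5 without a filter (adding P2RX5-TAX1BP3, EDA2R and TGFBI), 139 with DESeq2, 1 with voom, 4 with the H1299 libraries alone, 4 with FPKM plus 1, and 1 to 4 with a library left out. Added after seeing the data, DESeq2 gave 75 without H1299 empty vector library 2. It gave 49 with the H1299 libraries alone (39 higher, 10 lower), where genes such as NRCAM and TGFBI had no adjusted p. Also added, edgeR gave 5 with the H1299 libraries alone less empty vector library 2 (VGF, SNX22, P2RX5-TAX1BP3, HNRNPUL2-BSCL2 and 1 unannotated locus). The replicate block, on numbers that do not pair, left 1 call in H1299 (VGF) and 21 in the difference between lines. The difference, 29, was 310 with DESeq2, 168 with DESeq2 without H1299 empty vector library 2, 19 with voom and 18 to 36 with a library left out. PHLDA3, with 0.250 CPM in H1299 empty vector library 2 and 0 in the other 5, had a fitted value, which depends on the prior count, from -5.31 to 0 with a library left out, and of 0 without that library in both tools. Of 2536 values for 107 genes, 2400 kept direction and side of the threshold, and of 767 list medians 679 stayed within the spread over VGF libraries. Depth limits genes under 1 CPM, where groups differ by a few counts, and the causes of these shifts were not tested.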

Other observations

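Some genes were detected in only 1 group. Of the tested features, 161 had no count in the 3 empty vector libraries only, and 319 had none in the 3 VGF libraries only. DESeq2 called 24 of these 480, against 0.767% of all features. The 480 were picked by a difference in the same libraries that DESeq2 tests, so a higher share follows from the choice. The numbers 161 and 319 were not counted again without empty vector library 2, which carries the A549-type trace. PHLDA3, for example, had counts in that library alone. EDA2R, a receptor of ectodysplasin A2, had 0 counts with empty vector and 0.172, 0.1003 and 0.142 CPM with VGF (7, 4 and 6 counts), and A549 holds 27.0 CPM. The nucleoside transporter gene SLC28A2 had 0.178, 0.159 and 0.122 CPM with empty vector and 0 with VGF. The unit of these differences is a few counts per library.

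Of 23 tested lung and foregut lineage factors, 6 were higher and 16 lower, with a median log2 fold change of -0.27 (-0.26 without empty vector library 2, -0.022 without library 3, and -0.618 without VGF library 3). Among the 10 that reached 1 CPM, 5 were higher and 5 lower (-0.0021). Cancer-testis antigens, which H1299 expresses at high levels, had 13 of 19 listed genes higher (0.046, 0.025 without empty vector library 2, and 0.016 without VGF library 2), without a call by either tool in that list. GAGE12J, a cancer-testis antigen gene outside that list, had 117, 101 and 110.5 CPM with empty vector and 138, 134 and 129 CPM with VGF. Its groups did not overlap (log2 fold change 0.29, SE 0.070, edgeR adjusted p = 0.2997, DESeq2 0.026, and 0.174 without empty vector library 2). Of 32 HOX genes, 14 were higher and 18 lower (-0.027, -0.037 without empty vector library 2, and -0.059 to -0.0067 with a H1299 library left out), without a call by either tool. Of 26 Notch pathway genes, 7 were higher and 19 lower (-0.10, and -0.043 without empty vector library 2), and of 38 TGF-beta pathway genes 10 were higher and 28 lower (-0.055, -0.037 without that library, and -0.108 to -0.037 with a H1299 library left out), none called by either tool. The median of 34 NF-kB targets and cytokines went from -0.041 to 0.029 without empty vector library 2. Interferon-stimulated genes had 17 of 44 higher (-0.028, and -0.0041 without empty vector library 2), and TRIM22, at 0 with VGF, was the 1 DESeq2 call of that list (adjusted p = 0.026, and 0.038 without that library). Over all features DESeq2 called 0.508% lower. The zinc finger gene SALL3, which A549 barely holds, had 34.6, 33.6 and 33.8 CPM with empty vector and 41.3, 50.4 and 46.1 CPM with VGF (log2 fold change 0.43, SE 0.15; edgeR adjusted p = 0.512, DESeq2 0.014, and 0.147 without empty vector library 2).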
